A study of Glycine max with 42 samples.

Results

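Soybean genes that set flowering and stem growth habit were followed in leaves: the APETALA1 homologs AP1a (Glyma.16G091300), AP1b (Glyma.08G269800), AP1c (Glyma.01G064200) and AP1d (Glyma.02G121600), the stem habit genes Dt2 (Glyma.18G273600) and Dt1 (Glyma.19G194300), and SOC1a (Glyma.18G224500). These 7 genes were chosen by ID. Of the 38177 genes listed for Williams 82, 3 were members (Dt2, SOC1a and AP1c), and of the 37403 listed for T295H, 4 were (the same 3 and AP1a). No row of the tables used here carries the ID of AP1b, AP1d or Dt1, and these 3 genes were not analysed here. The lowest total of any listed gene was 7 counts in Williams 82 and 10 in T295H, and no listed gene was at 0 throughout. A gene without a row, as AP1a in Williams 82, may thus have had few or no counts, which could not be checked. The names AP1, Dt2, SOC1a and Dt1 were assigned by ID, since the tables hold no gene names.

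RNA from trifoliate leaves was sequenced in 42 libraries, 3 in each of 14 groups, to set leaves whose seed sink had been limited beside leaves of plants with that sink. In Williams 82, a soybean cultivar, plants were depodded (their pods were taken off) and sampled at days 45, 54, 64 and 76 after planting, with controls on the same days and an initial group at day 38, the R2 stage of flowering. In line T295H, sterile plants, which set the limit genetically, and controls were sampled at days 35 and 63, with an initial group at day 28, also R2. The labels give no sterility gene or allele and no leaf position. They mark both initial groups as the initial time point only. The titles of all T295H libraries, controls included, carry the word Sterile, so the word does not give the kind of plant. Whether the T295H initial plants were sterile is therefore not stated. Day and kind of plant cannot be told apart when T295H controls are set against them. The names of the initial libraries also hold the letters AP1, as the name of a sampling and not of the gene.

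The products of these genes work at the shoot tip more than in the leaf. In Arabidopsis, SOC1 is a MADS-box transcription factor that collects signals from day length, age and temperature and starts flowering, and AP1 is a related factor that turns a new meristem into a flower. Soybean Dt2 is a MADS-box factor of the same branch as AP1, whose dominant form makes the stem semi-determinate by lowering Dt1, and Dt1 is the soybean homolog of Arabidopsis TERMINAL FLOWER 1, which keeps the stem tip growing. The leaf is where day length is read, and the same regulators can be transcribed there.

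Values are normalised counts, which are counts divided by a scaling factor of each library. They are given per library or as mean ± SD (n = 3), and the 2 lines were scaled separately, so levels are not set side by side between lines. Library totals ran from 6663477 to 13166094 counts in Williams 82 and from 5471456 to 11877733 in T295H. Replicate 2 of the T295H initial group stood apart: its 10 most abundant genes took 41.3% of its counts, and its total was the lowest. Changes are log2 differences of normalised count + 1 from limma, with Benjamini-Hochberg adjusted p-values over all genes tested (29208 in Williams 82 and 29370 in T295H), and an adjusted p under 0.05 counts as a call. Nothing in the labels shows whether replicate libraries are separate plants, so a p-value here measures the spread of the libraries alone, and that spread may be technical. In leaf RNA, fewer cells of a type and less RNA per cell cannot be told apart.

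In normalised counts, Dt2 was highest on average in the initial leaves of both lines and was lower in the controls of the last day. Dt2 was also higher in sink-limited leaves of the last sampled day than in their controls. In Williams 82, Dt2 averaged 78.8 ± 29.4 in depodded leaves labelled day 76, against 3.93 ± 1.11 in controls of day 76. By the sampling numbers in the titles, the last depodded set is instead the one labelled day 64. That set averaged 21.1 ± 5.44, which was 5.37-fold above controls of day 76. In T295H, Dt2 averaged 20.3 ± 5.52 in sterile leaves of day 63, against 3.03 ± 2.67 in controls of that day.

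In Williams 82, the mean of Dt2 was lower at each later sampling of controls. Initial leaves of day 38 held 143, 130.0 and 110.3 normalised counts in replicates 1, 2 and 3. Controls held 64.9, 64.6 and 93.7 at day 45, 37.2, 76.3 and 45.6 at day 54, and 11.5, 15.9 and 12.8 at day 64. At day 76 they held 5.2, 3.21 and 3.37, from 6, 4 and 4 counts. In normalised counts, every control library lay below every initial library. As shares of library totals, the initial libraries and the controls of day 45 overlapped in range. Replicate 3 of those controls held 84 of 8415453 counts, and initial replicate 3 held a smaller share, 74 of 7500589. By either measure, controls of day 76 lay below all other control and initial libraries. As percentages of the initial mean normalised count, the control means were 58.3% at day 45, 41.5% at day 54, 10.5% at day 64 and 3.07% at day 76.

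The level of Dt2 differed among the initial group and the 4 control days (limma F = 75.0, adjusted p = 4.23e-10), where 66.7% of all genes tested passed the same test. In controls of day 76 it fell by 4.72 on the log2 scale (SE 0.31, adjusted p = 2.21e-10) against initial leaves, where 43.8% of genes passed in either direction and 23.7% were lower. With a pseudocount of 5 in place of 1 the change was -3.89. The change of Dt2 was below that of all but 2.55% of the genes tested. The control mean of day 76 was 32.5-fold below the initial mean, with a 95% counting interval of 15.3 to 82.3.

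Early after depodding, no difference in Dt2 was detected. At day 45, depodded leaves held 57.4, 53.3 and 74.3, against 64.9, 64.6 and 93.7 in controls. The ranges overlapped, and the log2 change was -0.26 (SE 0.31, adjusted p = 0.815). That comparison called 0.0103% of genes.

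At day 54, the depodded libraries held 125.8, 128 and 90.4, against 37.2, 76.3 and 45.6 in controls. All 3 depodded libraries lay above all 3 controls, and the mean of 115 ± 21.0 was 2.16-fold that of the controls (95% counting interval 1.68 to 2.77). The log2 change of 1.14 (SE 0.31) did not pass limma's test after adjustment (adjusted p = 0.0757), while DESeq2 put its adjusted p at 0.0188. At this day 0.88% of genes passed with limma and 4.71% with DESeq2, and 95.2% of genes had a lower log2 change than Dt2.

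The labels of the 2 last depodded samplings conflict: libraries labelled day 64 carry the sampling number that the controls have at day 76, and libraries labelled day 76 carry the number that the controls have at day 64. Each set is therefore compared by its label and by its title number, and the mean over both days does not depend on which is right. Libraries labelled day 76 held 108, 78.3 and 49.7, and libraries labelled day 64 held 24.0, 14.8 and 24.5. The controls of day 76 held 5.2, 3.21 and 3.37, and those of day 64 held 11.5, 15.9 and 12.8. Every depodded library lay above every control of day 76, and of these pairs of sets only the depodded one labelled day 64 and the controls of day 64 overlapped.

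By label, Dt2 was higher by 3.97 (SE 0.31, adjusted p = 5.33e-09) in depodded leaves labelled day 76 than in controls of day 76. There 46.3% of genes passed in either direction and 24.2% were higher, and the pseudocount of 5 gave a change of 3.17. The ratio of the means was 20.1, with a 95% counting interval of 9.67 to 52.0 to which the 3 controls brought 14 counts in all. Depodded leaves labelled day 64 averaged 21.1 ± 5.44, against 13.4 ± 2.22 in controls of day 64, and the log2 change of 0.59 (SE 0.31, adjusted p = 0.145) did not pass, in a comparison that called 35.8% of genes.

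By title number, both differences passed. The depodded set labelled day 76 was 5.88-fold above controls of day 64 (95% counting interval 3.83 to 9.81), with a log2 change of 2.41 and an adjusted p of 5.54e-05, where 13% of genes passed. The set labelled day 64 was 5.37-fold above controls of day 76 (2.39 to 14.5), with a log2 change of 2.15 and an adjusted p of 2.26e-05, where 28.3% of genes passed.

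Averaged over both late days, Dt2 was higher in depodded than in control leaves by 2.28 on the log2 scale (SE 0.22, adjusted p = 9.1e-08), where 33% of genes passed in either direction and 17.9% were higher. The depodding difference was itself larger late than at day 45, by 2.54 (SE 0.38, adjusted p = 0.000319), in a test that called 9.58% of genes in either direction and 6.3% as higher. Against initial leaves, Dt2 in the 6 late depodded libraries together fell by 1.66 (SE 0.27, adjusted p = 5.78e-05), where 40.5% of genes passed and 21% were lower. This comparison with initial leaves shares its depodded libraries with the comparison against controls.

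**Figure D1:**
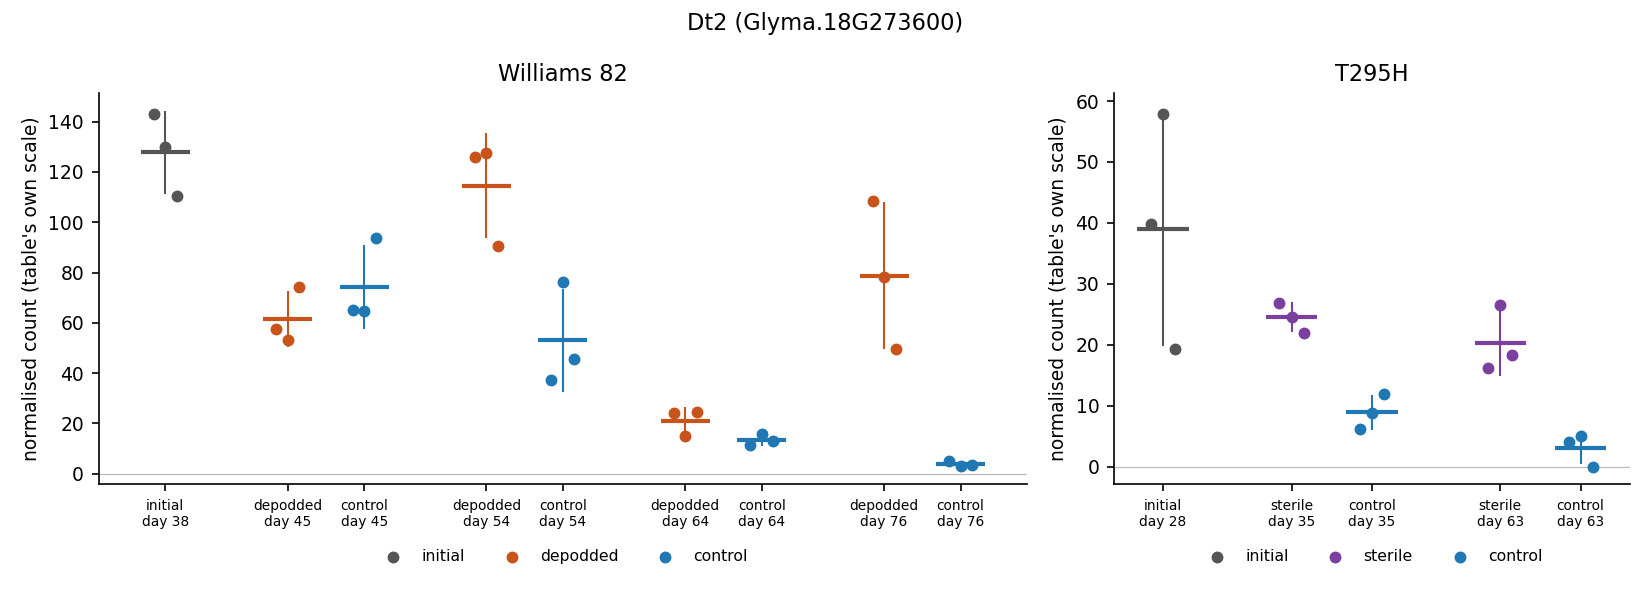
Dt2 in each library, as normalised counts on the scale of each line's table, with days after planting on the horizontal axis; horizontal bars are group means and vertical bars SD (n = 3). Depodded libraries labelled day 76 lie between 49.7 and 108, and those labelled day 64 between 14.8 and 24.5. Control means are 13.4 at day 64 and 3.93 at day 76. Sterile libraries of day 63 lie between 16.1 and 26.6, against a control mean of 3.03.

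By mean normalised count, the Williams 82 groups ran from initial leaves through depodded day 54 and depodded labelled day 76 to control day 45. Depodded day 45 and control day 54 followed, and each of these groups overlapped its neighbour in range. A gap without overlap separated control day 54 from depodded labelled day 64, which overlapped control day 64, and another gap separated control day 64 from control day 76. With days read from the titles, the depodded means after the initial 128 would be 61.6, 115, 78.8 and 21.1 in order of sampling. With days read from the labels, they would be 61.6, 115, 21.1 and 78.8.

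In T295H, Dt2 rested on few counts, at most 32 in a library. Sterile leaves held 26.9, 24.6 and 21.9 at day 35, against 6.16, 8.76 and 11.9 in controls. At day 63, sterile leaves held 16.1, 26.6 and 18.3, against 4.06, 5.04 and 0 in controls, which came from 4, 6 and 0 counts. The initial libraries held 39.8, 57.9 and 19.4. At both days every sterile library lay above every control library, and sterile libraries of day 63 overlapped the initial range. By mean, initial, sterile day 35 and sterile day 63 overlapped as neighbours, and control day 35 lay below them without overlap. The lowest control of day 35 and the highest control of day 63 both held 6 counts, so these control groups were not separable at this depth.

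At day 63, Dt2 was higher in sterile than in control leaves by 2.74 (SE 0.61, adjusted p = 0.00163), in a comparison where 50.3% of genes passed and 26.6% were higher. The ratio of the means was 6.70 (95% counting interval 2.63 to 21.7). Without replicate 3 of the controls, the library with no Dt2 count, the ratio was 4.46 and the log2 change 1.92 (adjusted p = 0.00521). Without replicate 2 of the controls the ratio was 10.01 and the log2 change 3.21 (adjusted p = 0.0010). With a pseudocount of 5 the change was 1.70 (adjusted p = 0.00142).

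At day 35, the sterile mean was 2.74-fold that of the controls (95% counting interval 1.45 to 5.07). The log2 change of 1.40 (SE 0.61) lay above that of 97.4% of genes but did not pass after adjustment (adjusted p = 0.35). Only 0.177% of genes passed in that comparison. The sterility effects of days 63 and 35 differed by 1.34 (SE 0.86, adjusted p = 0.27), which did not pass, in a test that called 27.1% of genes. That difference was 0.52 without replicate 3 of the day 63 controls, 1.82 without their replicate 2 and 0.60 with a pseudocount of 5, none of which passed.

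The initial libraries of T295H differ from controls in day and may differ in kind of plant. Set against them, controls of day 63 had a Dt2 change of -3.55 (SE 0.61, adjusted p = 0.000111), where 63.4% of genes passed and 32.1% were lower. That change lay inside the 5th to 95th percentile range of all genes tested, -4.50 to 3.88. The control mean was 12.9-fold lower, with a 95% counting interval of 4.29 to 36.1. Leaving out the initial replicate that stood apart gave a log2 change of -3.20 (adjusted p = 0.000802), and leaving out replicate 3 of the controls gave -2.73 and an 8.57-fold lower mean. A pseudocount of 5 gave -2.41 (adjusted p = 3.69e-05). Controls of day 35 averaged 8.93 ± 2.86, against 39.0 ± 19.3 in initial leaves, a 4.37-fold lower mean (95% counting interval 1.93 to 6.98) with ranges apart. That change of -1.92 (SE 0.61) did not pass with limma (adjusted p = 0.0528), where 11.6% of genes did. It passed with edgeR (adjusted p = 0.0421), which called 10.8% of genes, and with DESeq2 (adjusted p = 0.00224), which called 15.2%. Without the initial replicate that stood apart it was -1.58 (adjusted p = 0.178). Set against initial leaves, sterile leaves of day 63 gave a change of -0.81 (SE 0.61, adjusted p = 0.326), which did not pass, where 34% of genes passed and 17.4% were lower.

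SOC1a, the flowering integrator, had lower normalised counts in the last controls than in initial leaves of both lines. As shares of library totals, these groups overlapped in T295H but not in Williams 82. SOC1a was also higher in depodded leaves labelled day 76 than in controls of day 76. The mean of Williams 82 controls of day 76 was 36.8% of the initial mean for SOC1a, where that of Dt2 was 3.07%. Every library of both lines held SOC1a counts, with a mean of 229 normalised counts over the Williams 82 table and 241 over the T295H table.

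In Williams 82, initial leaves held 520, 247 and 253 normalised counts of SOC1a, and replicate 1 lay far above the other two. Controls averaged 202 ± 17.9 at day 45, 239.7 ± 44.9 at day 54 and 221 ± 24.9 at day 64. Controls of day 76 held 146, 120.4 and 109.5 and lay below every other library of the line. The controls of days 45, 54 and 64 overlapped in range with one another. Ordered by mean over all 9 groups, from initial leaves down to control day 76, each SOC1a group overlapped its neighbour except at the last step, from depodded day 45 to control day 76.

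SOC1a differed among the initial group and the control days (limma F = 7.78, adjusted p = 0.00124), a test that 66.7% of genes passed. In controls of day 76 it fell by 1.35 (SE 0.25, adjusted p = 0.000123) against initial leaves, where 43.8% of genes passed. Without initial replicate 1 the change was -1.0 (adjusted p = 0.00143), and the control mean was 2.0-fold lower in place of 2.72-fold.

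In depodded leaves, SOC1a averaged 201 ± 4.07 at day 45, against 202 ± 17.9 in controls, and 260.1 ± 47.0 at day 54, against 239.7 ± 44.9 in controls. Log2 changes were 0.00 (SE 0.25, adjusted p = 1.0) and 0.12 (SE 0.25, adjusted p = 0.873). The 95% counting interval of the ratio of pooled counts was 0.842 to 1.18 at day 45 and 0.902 to 1.18 at day 54. No difference in SOC1a was detected at these days.

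Depodded leaves labelled day 76 held 243, 215 and 241 of SOC1a, against 146, 120.4 and 109.5 in controls of day 76. The groups did not overlap, the ratio of the means was 1.86 (95% counting interval 1.59 to 2.22), and the log2 change was 0.90 (SE 0.25, adjusted p = 0.00532). That comparison called 46.3% of genes. Depodded leaves labelled day 64 held 251, 159 and 299, against 237, 234 and 192 in controls of day 64, with overlapping ranges and a log2 change of 0.05 (SE 0.25, adjusted p = 0.886).

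Either set of late depodded leaves was higher in SOC1a than controls of day 76, and neither passed against controls of day 64. Paired by title number, the depodded set labelled day 64 was higher than controls of day 76 by 0.87 (SE 0.25, adjusted p = 0.0108), where 28.3% of genes passed. The ratio of means was 1.89 (95% counting interval 1.62 to 2.26). The set labelled day 76 had a ratio of 1.05 (0.930 to 1.24) to controls of day 64, and its log2 change of 0.08 (adjusted p = 0.866) did not pass. Averaged over both late days SOC1a was higher in depodded leaves by 0.48 (SE 0.18, adjusted p = 0.0411), where 33% of genes passed. That call was kept without control day 64 replicate 2, control day 76 replicate 1 or depodded labelled day 64 replicate 2, and was lost when any of the 9 others of the 12 libraries was left out, with adjusted p-values from 0.010 to 0.12, and all 12 changes lay between 0.38 and 0.61. The 6 late depodded libraries against initial leaves gave -0.47 (SE 0.22, adjusted p = 0.0867), and -0.12 (adjusted p = 0.690) without initial replicate 1, while leaving out initial replicate 2 gave -0.65 (adjusted p = 0.0360). It also passed without initial replicate 3 or without replicate 3 of the depodded set labelled day 64. The late difference was not shown to exceed that of day 45 for SOC1a (0.48, SE 0.31, adjusted p = 0.343).

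**Figure D2:**
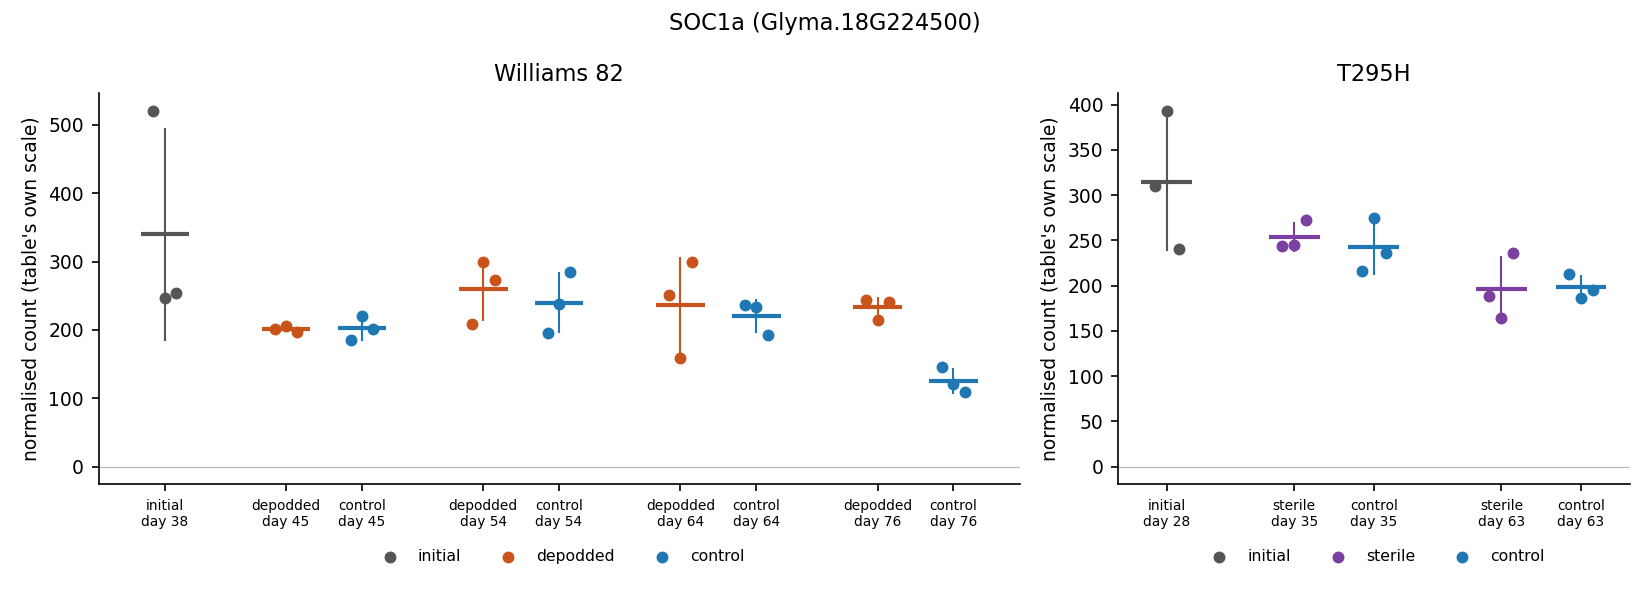
SOC1a in each library, as normalised counts on the scale of each line's table, with days after planting on the horizontal axis; horizontal bars are group means and vertical bars SD (n = 3). Controls of day 76, between 109.5 and 146, lie below all other Williams 82 libraries, and sterile and control libraries of T295H overlap at both days.

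In T295H, SOC1a did not separate sterile from control leaves. Sterile leaves held 243, 244 and 272 at day 35, against 216, 275 and 236 in controls, and the log2 change was 0.07 (SE 0.19, adjusted p = 0.915). At day 63, sterile leaves held 189, 164 and 236, against 213, 187 and 195 in controls, and the log2 change was -0.03 (SE 0.19, adjusted p = 0.917). The 95% counting interval of the ratio of pooled counts ran from 0.908 to 1.2 at day 35 and from 0.866 to 1.17 at day 63.

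In normalised counts, both day 63 groups, which overlapped each other, lay below the initial libraries, which held 311, 393 and 241. Against initial leaves, the change was -0.67 (SE 0.19, adjusted p = 0.0124) in sterile leaves of day 63 and -0.64 (SE 0.19, adjusted p = 0.0074) in controls of that day. These comparisons called 34% of genes for sterile leaves and 63.4% for controls. Without initial replicate 2, the library that stood apart, the values were -0.49 (adjusted p = 0.0626) for sterile leaves and -0.47 (adjusted p = 0.0429) for controls. The call for sterile leaves was also lost without their replicate 2. Both comparisons use the same initial libraries, and both depend on the scaling between libraries. As shares of the total counts of each library, the initial, sterile and control libraries overlapped in range. The highest of these shares was that of a sterile library of day 63. With edgeR, which scaled the counts by TMM, both calls were kept, at -0.62 for sterile leaves and -0.66 for controls. The change in controls of day 35, of -0.36 (SE 0.19, adjusted p = 0.233), did not pass. It was -0.53 and passed (adjusted p = 0.0469) without initial replicate 3, and was -0.18 without initial replicate 2. The difference of the sterility effects between days did not pass (-0.10, SE 0.26, adjusted p = 0.822).

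**Figure D3:**
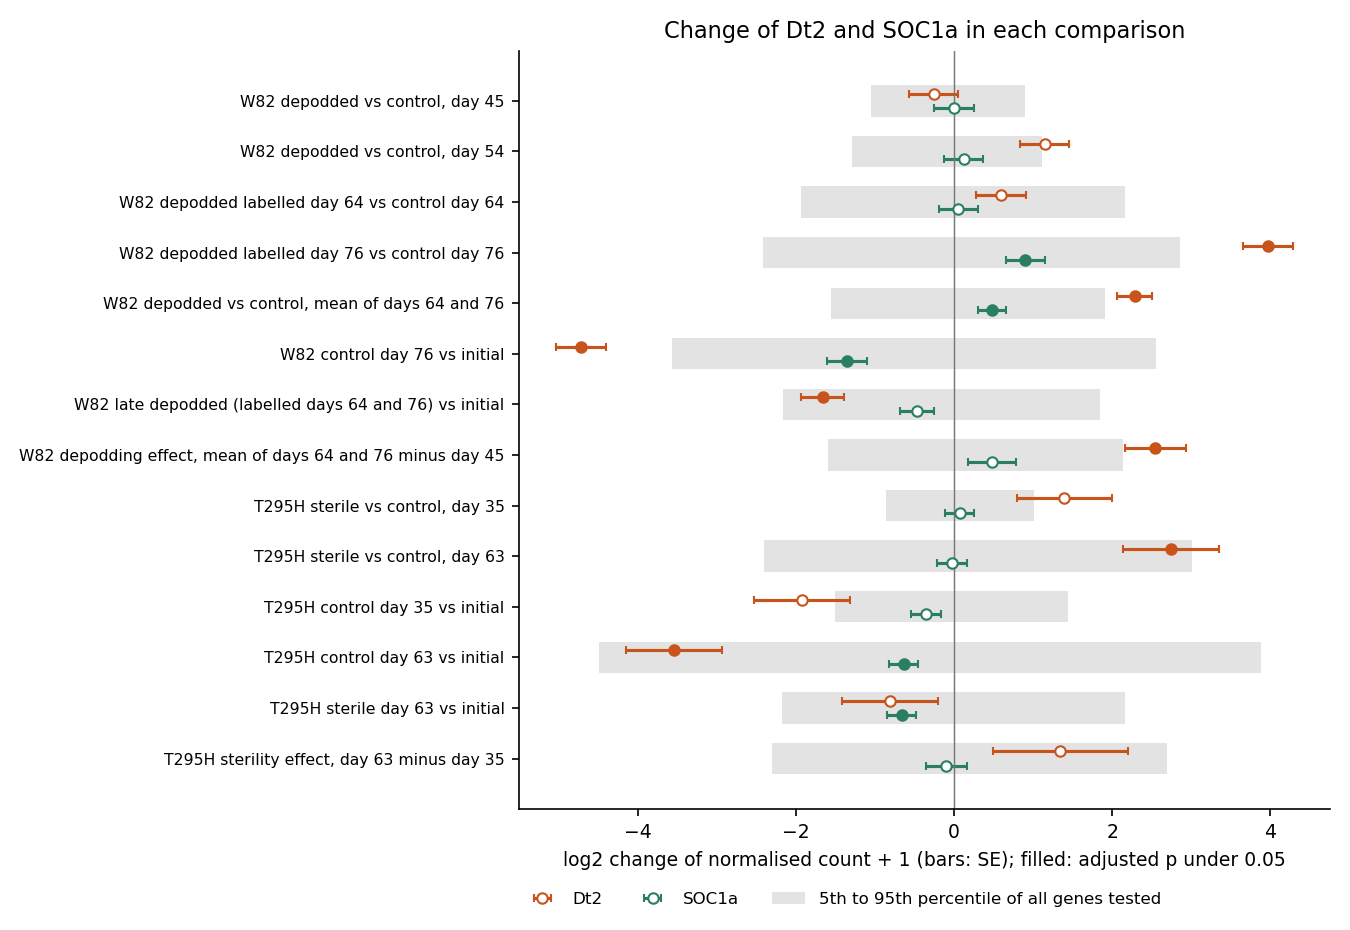
Log2 change of Dt2 and SOC1a in 14 comparisons (horizontal axis, normalised count + 1; bars are SE), filled where the limma adjusted p was under 0.05, over grey bands from the 5th to the 95th percentile of all genes tested. Dt2 lies outside the band at 3.97 (depodded leaves labelled day 76 against controls) and -4.72 (controls of day 76 against initial leaves). In T295H, Dt2 lies inside it at 2.74 (sterile leaves of day 63 against controls) and -3.55 (controls of day 63 against initial leaves). SOC1a stays inside the band in all 14.

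The number of Dt2 counts per 100 SOC1a counts within a library is free of the scaling between libraries, and was used to compare libraries and not the levels of the genes. In Williams 82 the initial mean was 41.2 ± 12.7. Depodded and control leaves averaged 30.7 ± 6.17 and 37.0 ± 8.85 at day 45, and 45.4 ± 13.9 and 22.3 ± 8.50 at day 54. Depodded leaves labelled day 64 averaged 9.02 ± 0.724, against 6.11 ± 1.07 in controls of day 64, and depodded leaves labelled day 76 averaged 33.9 ± 12.2, against 3.11 ± 0.453 in controls of day 76. In this measure the depodded and control libraries of day 54 did not overlap (33.1 to 60.5, against 16 to 32). The depodded set labelled day 64 (8.20 to 9.56) did not overlap controls of day 64 (4.88 to 6.78). By title number, it lay above controls of day 76 (2.67 to 3.57). The set labelled day 76 (20.6 to 44.6) lay above the controls of either day.

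In T295H the same measure was 11.9 ± 3.46 in initial leaves. It was 9.72 ± 1.52 in sterile leaves, against 3.69 ± 1.17 in controls, at day 35, and 10.8 ± 4.65 in sterile leaves, against 1.54 ± 1.39 in controls, at day 63. Both sterile group means lay within 1 SD of the initial mean, though not every sterile library did. Every sterile library lay above every control library of its day. These ratios carry no test.

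**Figure D4:**
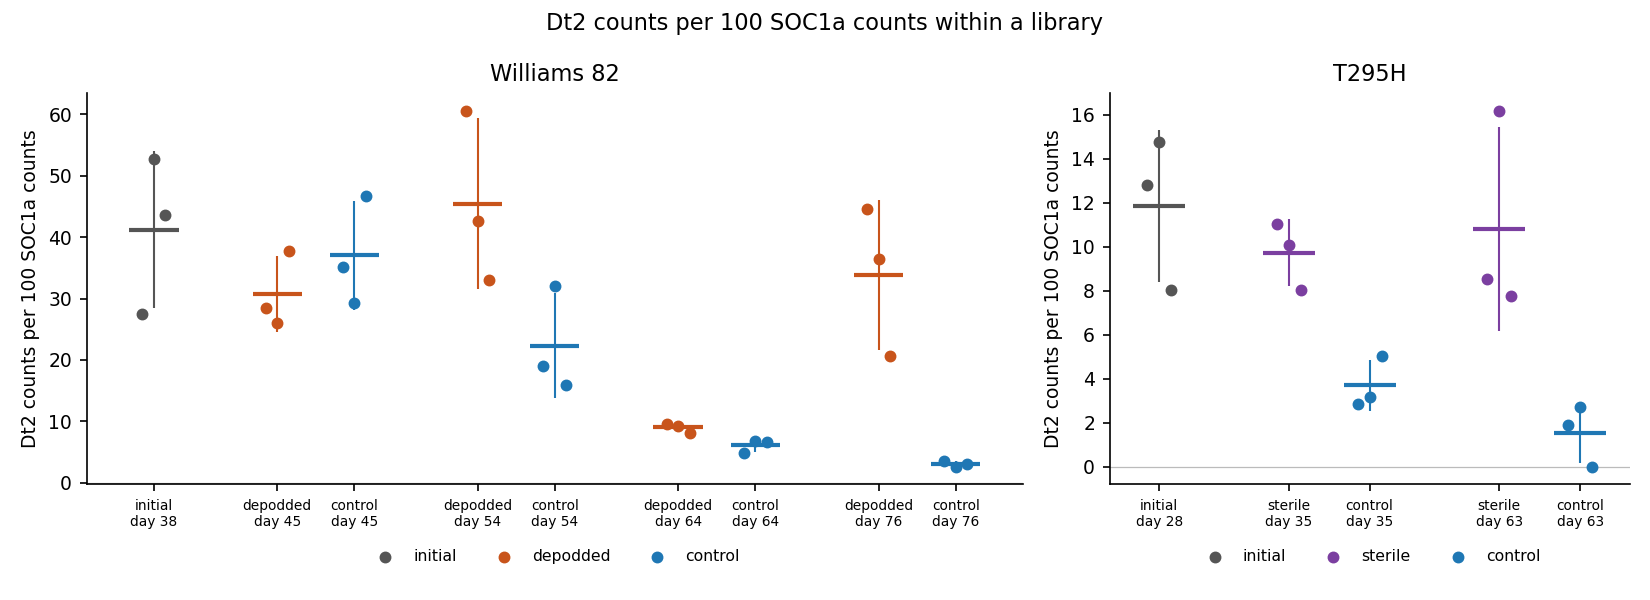
Dt2 counts per 100 SOC1a counts in each library, with days after planting on the horizontal axis; horizontal bars are group means and vertical bars SD (n = 3). The mean is 33.9 in depodded leaves labelled day 76 and 9.02 in those labelled day 64. It is 6.11 in controls of day 64 and 3.11 in controls of day 76. In T295H it is 10.8 in sterile leaves of day 63, against 1.54 in controls.

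The AP1 genes, which specify floral meristems, were at the edge of detection in these leaves. AP1c had 60 counts in all 27 Williams 82 libraries together and was at 0 in 10 of them, and no library held more than 8. In T295H it had 74 counts over 15 libraries, with at most 14 in a library. AP1a was listed for T295H alone, with 26 counts in 8 of 15 libraries. The means of AP1c over the tables were 2.24 in Williams 82 and 4.97 in T295H, under the mean of 10 required for a test, and that of AP1a was 1.81.

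In Williams 82, AP1c counts were few in depodded and in control libraries, and no comparison passed. The 3 libraries of a group held 4 counts in depodded leaves, against 6 in controls, at day 45, and 2, against 16, at day 54. The depodded set labelled day 64 held 4, against 12 in controls of day 64, and the set labelled day 76 held 2, against 4 in controls of day 76. Paired by title number, 4 counts in the set labelled day 64 stand against 4 in controls of day 76. The set labelled day 76 then has 2 counts, against 12 in controls of day 64. Over all days the 12 depodded libraries held 12 counts, none more than 2, and the 12 control libraries held 38, while the 3 initial libraries held 10. With the filter on low values dropped, 0 of 9 comparisons of AP1c passed limma's test, with a lowest adjusted p of 0.163 and an unadjusted p under 0.05 in 0 of 9. Ordered by mean, every AP1c group overlapped its neighbour in both lines, as every AP1a group did in T295H.

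In T295H, AP1c had 20 counts in initial leaves, 14 in sterile leaves, against 12 in controls, at day 35, and 8 in sterile leaves, against 20 in controls, at day 63. All 8 of those sterile counts came from replicate 1. AP1a had 14 counts in sterile leaves of day 63, of which 12 came from 1 library, against 0 in controls of that day. A count of 0 allows up to 6 counts in a library, since counts came in pairs. Without the filter, 0 of 6 comparisons passed for each gene, with lowest adjusted p-values of 0.0699 for AP1c and 0.137 for AP1a, and an unadjusted p under 0.05 in 1 comparison of AP1c and 0 of AP1a. The few counts limit what these comparisons can show.

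**Figure D5:**
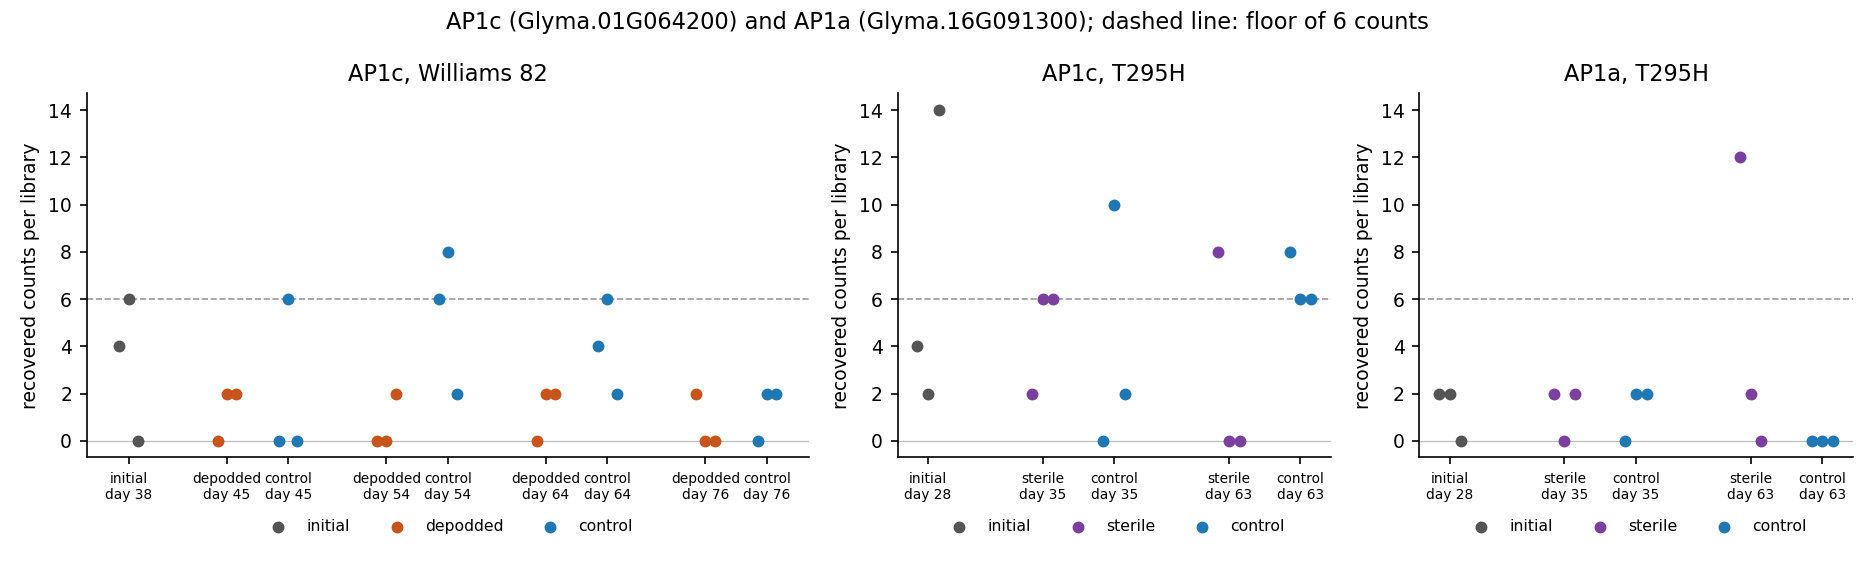
Recovered counts of AP1c and AP1a in each library, with days after planting on the horizontal axis and a dashed line at the floor of 6 counts. In Williams 82 no depodded library holds more than 2 counts of AP1c and no library more than 8, and in T295H the highest values are 14 for AP1c and 12 for AP1a.

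Of 17535 genes that averaged 50 or more in each table, those whose log2 levels followed Dt2 most closely in both lines were Glyma.06G141100 and Glyma.17G013600. The Pearson correlations with Dt2 were 0.894 over the 27 Williams 82 libraries and 0.908 over the 15 T295H libraries for Glyma.06G141100, and 0.924 and 0.885 for Glyma.17G013600. Glyma.06G141100 averaged 78.4 ± 18.8 in depodded leaves labelled day 76, against 3.95 ± 2.03 in controls of day 76, and 22.1 ± 5.07 in the set labelled day 64, against 19.5 ± 12.3 in controls of day 64. In T295H it averaged 79.4 ± 20.7 in sterile leaves of day 63, against 9.95 ± 7.41 in controls of that day. Glyma.17G013600 averaged 213 ± 40.4 in depodded leaves labelled day 76, against 12.7 ± 5.03 in controls of day 76, and 48.9 ± 22.5 in the set labelled day 64, against 35.9 ± 8.40 in controls of day 64. It averaged 536 ± 178 in sterile leaves of day 63, against 46.1 ± 10.4 in controls. In initial leaves Glyma.06G141100 averaged 157 ± 95.4 and Glyma.17G013600 312 ± 56.4 in Williams 82.

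SOC1a was most closely followed by Glyma.08G303800, with correlations of 0.800 in Williams 82 and 0.847 in T295H, and by Glyma.07G258600, with 0.847 and 0.791. Glyma.07G258600 averaged 807 ± 97.3 in depodded leaves labelled day 76, against 329 ± 55.9 in controls of day 76. In T295H it averaged 490 ± 34.5 in sterile leaves of day 63, against 293 ± 33.2 in controls without overlap, where SOC1a had a ratio of 0.991. Glyma.08G303800 averaged 2831 ± 1015 in sterile leaves of day 35, against 1246 ± 214 in controls, where SOC1a had a ratio of 1.05. The correlation of Dt2 with SOC1a was 0.670 in Williams 82 and 0.538 in T295H. These correlations describe libraries that share groups and days, and they carry no p.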

How the data were processed

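The tables deposited by the authors hold a signal for each gene and library, 1 table per line. Each column consists of whole multiples of 1 step, as gene counts divided by a size factor would be. Bowtie2 and DESeq2 are named in the submitters' processing notes, without version or role, and the sources used here do not give the genome build, annotation, counting tool or use of strand. Values divided by their step were whole within 0.01 in 100% of cases. Between 98.8% and 99.2% of the counts above 0 in a library were even. Floors (3 pairs, 6 counts per library) and exact 95% intervals were therefore computed on pairs, and they cover counting error only. Each counting interval is for the ratio of counts pooled over the libraries of a group, with allowance for depth. That pooled ratio can differ from the ratio of means printed beside the interval. A library's floor was 3.80 to 11.9 normalised counts in Williams 82 and 4.22 to 19.3 in T295H.

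Tests were made with limma 3.58.1 (trend, two-sided) in R 4.3.3 on log2(value + 1), a scale that understates the change of low genes. A gene needed a mean of 10 over its table, all groups of a table entered 1 fit, and p-values were adjusted by Benjamini-Hochberg within each comparison. Alternatives were edgeR 4.0.16 (quasi-likelihood, TMM) and DESeq2 1.42.0 on the recovered counts, a pseudocount of 5, no filter, a replicate block, days by title number, and leaving out each library. The scripts were tested on simulated data. Groups follow the time point and sample group labels, and a numbered ending of the T295H IDs, of unstated meaning, was removed.

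The genes named are the 7 members and, for Dt2 and SOC1a, the 2 other genes each whose log2 levels correlated best in the line where they correlated less. The members and lists were chosen with earlier results of these data known. None of the 39557 IDs matched the 59048 genes of the reference (RefSeq, Glycine_max_v4.0), so lists of related flowering genes and of leaf, flower, seed, nodule and meristem markers could not be applied, and the tissue label was not checked against markers. Reads shared between near-identical gene copies could not be recognised, which leaves the values of these families uncertain.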

Additional observations from a re-analysis of the deposited data

Results flagged for a closer look

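The depodding difference in Dt2 was larger over the late days than at day 45, by 2.54 on the log2 scale (SE 0.38, limma adjusted p = 0.000319), a difference of an effect between time points. The late difference was 2.28 and that of day 45 was -0.26. Swapping the days of the late depodded sets leaves this value as it is, since it averages both. Groups of 3 libraries are too small for a search for single libraries far from the rest.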

How the results depend on the processing

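Counts of called genes moved by over 1.5 times under other settings in 5 comparisons. For depodding at day 45, 3 genes passed with limma, 1 with a pseudocount of 5, 0 with edgeR (3075 at an unadjusted p under 0.05) and 120 with DESeq2. At day 54, 257 passed (156 higher, 101 lower), 393 with the pseudocount and 1375 with DESeq2 (671 higher, 704 lower). For sterility at day 35, 52 passed, 95 with the pseudocount and 826 with DESeq2. By title number, 3800 genes passed in place of 10445 labelled day 64, and 8265 in place of 13537 labelled day 76. The total moved by under 1.5 times, but the number of lower genes by more, for T295H controls of day 35 against initial leaves (1589 higher and 1818 lower with limma, 1619 and 2836 with DESeq2) and for the late minus early depodding difference (1841 and 957, against 2350 and 1788). Leaving out 1 library gave 0 to 19 calls at day 45, 23 to 155 at day 54, 5 to 33 for sterility at day 35, 1667 to 3275 for the late minus early depodding difference, and 1385 to 6971 for T295H controls of day 35 against initial leaves.

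Every Dt2 call of the main test was kept under all settings run, but a pseudocount of 5 reduced its larger changes by over 1.5 times as folds, as given beside them. Dt2 also passed at day 54 with DESeq2, and in T295H controls of day 35 against initial leaves with 4 settings and without initial replicate 3 (adjusted p = 0.0161). SOC1a changed sign only in comparisons that did not pass. With edgeR it was 0.0468 for sterile leaves of day 63 and 0.00315 for the sterility difference between days. Without 1 library its change ran from -0.0636 to 0.0632 at day 45, -0.0201 to 0.27 at day 54, -0.14 to 0.31 at labelled day 64, -0.00978 to 0.17 for sterility at day 35, -0.17 to 0.0922 at day 63 and -0.24 to 0.0221 for its difference between days.

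Same-numbered libraries of compared groups did not deviate together (correlations from -0.186 to 0.248, not over 0.1 in every pair of any comparison), so the numbers were not taken to pair them. A replicate block changed 1 call of these genes, that of Dt2 in T295H controls of day 35 against initial leaves (adjusted p = 0.046). Depth limits the AP1 genes and Dt2 in the last controls, where a few counts set each value, and no sequence, gene length or GC check was made.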
